A study of Homo sapiens with 12 samples.

Results

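A673, a cell line of Ewing sarcoma, was compared after 6 hours with 100 nM THZ531 and after 6 hours with the solvent DMSO. The comparison used 4 of the 12 arrays of the series, 2 with DMSO (called DMSO a and DMSO b below for replicates 1 and 2) and 2 at 100 nM (THZ a and THZ b), which the labels call biological replicates. The remaining arrays held A673 at 500 nM and the Ewing line TC32 with DMSO, 100 nM or 500 nM, again 2 each. The labels name the compound THZ_5_31_1 and the series text THZ531, and the DMSO arrays are labelled 100 nM in the dose field too, a dose that was not applied to them here. Both groups are 1 cell line in culture, so each value describes A673 and no other cell. Biotin-labelled total RNA was hybridised, and of the 16944 genes with usable rows, 10166 were tested because their mean log2 value over the 12 arrays reached the 40th percentile, 5.94.

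THZ531 covalently inhibits the kinases CDK12 and CDK13, which act with cyclin K to phosphorylate the tail of RNA polymerase II while it elongates. CDK12 is known for sustaining full-length transcription of genes of the DNA damage response, among them genes of homologous recombination. The driver of Ewing sarcoma is a chimeric protein, here EWS/FLI, that joins EWSR1 to an ETS factor. It acts as a transcription factor and both activates and represses genes.

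On the scale in which the values were deposited, most genes were lower at 100 nM than with DMSO. The array medians over all kept genes were 7.32 and 7.07 (log2) with DMSO and 6.61 and 6.54 at 100 nM. Both 100 nM arrays lay below both DMSO arrays, a mean shift of -0.62, and the exact two-sided permutation p was 0.333, the smallest that 2 against 2 arrays can give. Control RNAs were added to the total RNA, per the labels, and whether the arrays were scaled to them is not given in the sources used here, so less RNA per cell, fewer cells and a difference in scaling cannot be told apart. Gene-level results are therefore given mainly relative to the array median, that is, after each array had been centred on its own median. The 2 scales differ by the same 0.62 for every gene, and a difference of 1 is 2-fold.

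Relative to the array medians, 2495 of the 10166 tested genes (24.5%) were higher at 100 nM and 1734 (17.1%) were lower, by limma with Benjamini-Hochberg adjusted p under 0.05. Each p-value rests on the spread between replicate arrays in all 6 groups of the series, which may be partly technical. Of the 4229 calls, 4217 had both 100 nM arrays beyond both DMSO arrays. The calls rest on the same values, so this count adds no support to them. At least 2-fold higher were 158 genes (1.55%) and at least 2-fold lower 295 (2.9%). On the deposited scale 134 genes (1.32%) were higher and 5964 (58.7%) lower, and of these 38 rose and 1510 fell by at least 2-fold. All 1734 genes that were lower relative to the medians were also lower as deposited, and 134 of the 2495 higher ones were also higher as deposited. The share of higher genes among all calls was 59.0% relative to the medians, 2.20% as deposited, 50.8% after quantile normalization and 69.1% when arrays were centred on the tested genes. The count of higher genes was 1652 without DMSO a and 1343 without THZ b, and without DMSO b 250 genes rose and 226 fell by at least 2-fold. As deposited, 3155, 3960 and 3348 genes were lower, and 88, 87 and 76 higher, without DMSO a, THZ a and THZ b. Without either A673 array at 500 nM, 228 genes were higher as deposited.

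**Figure D1:**
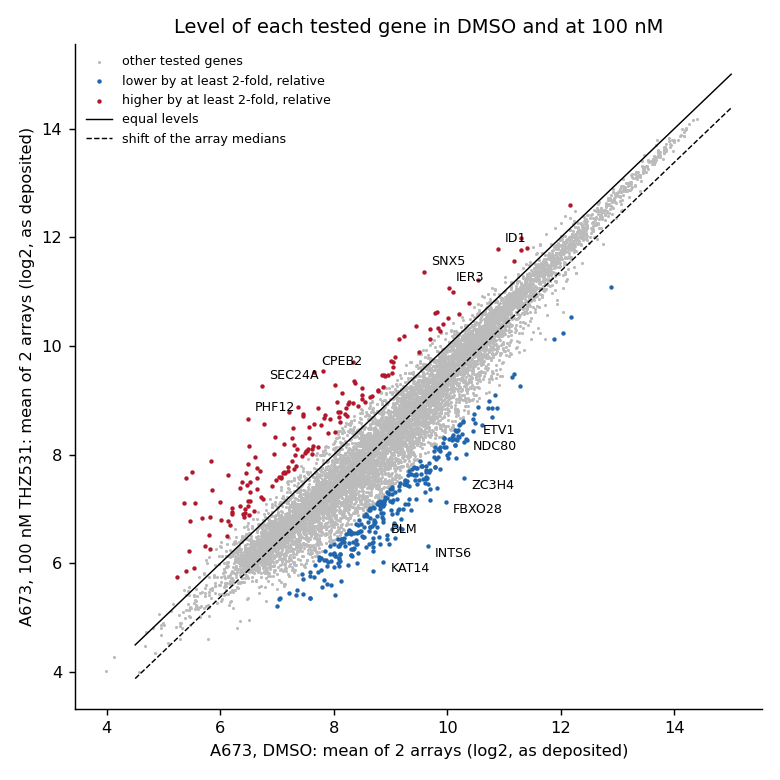
Mean log2 value of each tested gene as deposited, with DMSO on the horizontal axis and at 100 nM on the vertical axis, each over 2 arrays. Most of the cloud lies around the dashed line, 0.62 below the line of equal levels, and its bright end lies between both lines. The coloured points are the 158 genes at least 2-fold higher (red) and the 295 at least 2-fold lower (blue) relative to the array medians.

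The largest rise was that of SEC24A, which encodes a cargo-binding subunit of the COPII coat. Its values were 6.70 and 6.75 with DMSO and 9.21 and 9.32 at 100 nM. The groups were far apart, and the difference was 3.16 ± 0.14 (SE, n = 2 against 2) relative to the medians, 2.54 as deposited (limma adjusted p 6.2e-13 relative). PHF12, a PHD finger protein of a histone deacetylase complex, was at 6.45 and 6.51 with DMSO and at 8.59 and 8.73 at 100 nM, a relative difference of 2.80 ± 0.16. CPEB2, an RNA-binding protein of cytoplasmic polyadenylation, went from 7.64 and 7.67 to 9.52 and 9.52, a relative difference of 2.49. CHD2, a chromatin remodeller, rose by 2.42 and SNX5, a sorting nexin of endosomes, by 2.39. TAF5L, a subunit of histone acetyltransferase complexes, rose by 2.35, KMT5B, a methyltransferase for histone H4, by 1.98 and TLE4, a Groucho corepressor, by 1.91. The 15 also held the ubiquitin ligase gene HECTD2 (2.27), DMXL1 (2.18), the small nucleolar RNA SNORA84 (2.13), the Hippo pathway kinase gene LATS1 (2.11) and the DNA damage kinase gene ATM (1.97). The histone gene H2AC8 (1.97) and the transporter-family gene SLC10A7 (1.96) completed them. All 15 were also higher as deposited, the least of them TLE4 at 1.29, and both 100 nM arrays lay above both DMSO arrays in each, as the rule for naming them required. That rule also required both group means to be at or above 5.94, which 142 of the 158 genes at least 2-fold higher met.

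The largest fall was that of INTS6, a subunit of the Integrator complex, which cleaves nascent transcripts of RNA polymerase II. Its values were 9.68 and 9.63 with DMSO and 6.43 and 6.21 at 100 nM, a relative difference of -2.71 ± 0.12 and -3.33 as deposited (limma adjusted p 6.2e-13 relative). FBXO28, an F-box protein of ubiquitin ligases, was at 10.05 and 9.90 with DMSO and at 7.30 and 6.94 at 100 nM, a relative difference of -2.23 ± 0.13. ZC3H4, a zinc finger factor that limits noncoding transcription, was at 10.30 and 10.27 with DMSO and at 7.73 and 7.40 at 100 nM, a relative difference of -2.10. In each of these genes the groups did not overlap, as the rule for naming them required. As deposited, the DMSO arrays of each were closer together than the 100 nM arrays. After centring this order was reversed for INTS6, at 2.36 and 2.55 with DMSO and -0.18 and -0.33 at 100 nM. KAT14, an acetyltransferase of the ATAC complex, was at -2.22, DIXDC1, a Wnt pathway protein, at -1.99, and MOCS3, an enzyme of molybdenum cofactor synthesis, at -1.99. Genes of microtubule organisation were present in TUBGCP3 (-1.91), a subunit of the gamma-tubulin ring complex, and PIBF1 (-1.84), a centrosomal protein. MAU2 (-1.82) encodes a loader of cohesin, RNF111 (-1.82) a ubiquitin ligase, DUS2 (-1.80) an enzyme that makes dihydrouridine in tRNA and FAT4 (-1.79) an atypical cadherin. DHX32 (-1.95), PRR5L (-1.89) and CCDC138 (-1.87) were the rest of the 15 named. Of the 295 genes at least 2-fold lower, 272 had both group means at or above 5.94.

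**Figure D2:**
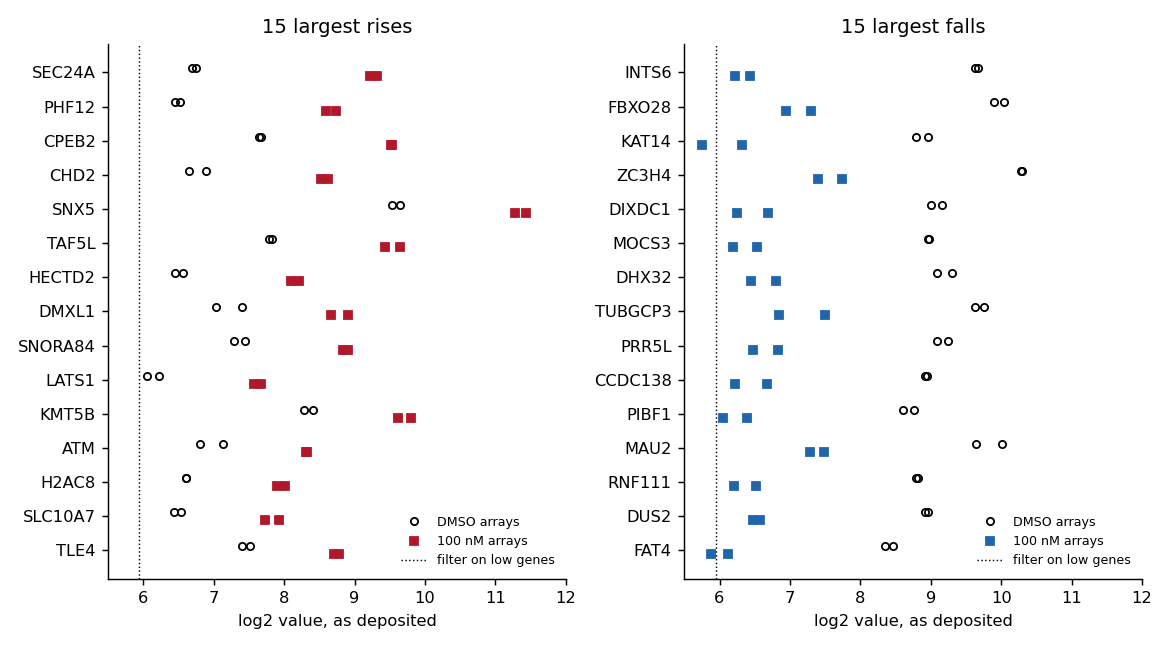
Deposited log2 value on each of the 4 arrays for the 15 largest rises (left) and the 15 largest falls (right), ordered by relative difference; circles are DMSO arrays, squares 100 nM arrays and the dotted line is the level of 5.94 used as a filter. In every gene shown both squares lie on 1 side of both circles, as the rule for naming them required. SEC24A moves from 6.70 and 6.75 to 9.21 and 9.32 while INTS6 moves from 9.68 and 9.63 to 6.43 and 6.21.

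Of the targeted kinases, CDK13 was called lower and CDK12 was not called. CDK13 was at 8.38 and 8.37 with DMSO and at 7.08 and 6.84 at 100 nM, a relative difference of -0.80 ± 0.17 (limma adjusted p 0.00086). CDK12 was at 8.49 and 8.30 with DMSO and at 7.81 and 8.07 at 100 nM. Its relative difference of 0.16 (adjusted p 0.30) was not called and turned to -0.46 as deposited (adjusted p 0.0480). CCNK, the cyclin of both kinases, was at 0.41 relative to the medians, a call that ended without THZ b (adjusted p 0.0784), and at -0.21 as deposited. Of 14 tested kinases and cyclins of transcription, 4 were higher and 2 lower, near the shares over all tested genes (24.5% and 17.1%), with a median of 0.30 beside 0.10 over all tested genes. As deposited 0 were higher (0 also at an unadjusted p under 0.05 by limma) and 6 lower. CCNT2, a cyclin of the elongation kinase CDK9, rose by 0.78 and CDK19, a Mediator kinase, was at -0.41. The CDK19 call ended without DMSO b (adjusted p 0.0628) or THZ a (0.0860). CDK8, also a Mediator kinase, was at 0.41 relative and -0.21 as deposited, and its call ended without DMSO a (adjusted p 0.0519) or THZ b (0.113). Higher were 7 of the 14 without DMSO b and 2 without THZ b. Lower was 1 of the 14 without DMSO b or without THZ a.

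Of 38 tested factors of elongation 13 were higher and 10 lower (6 lower without THZ b), beside 24.5% and 17.1% of all tested genes, and the median of 0.10 was that of all tested genes. As deposited 1 was higher and 20 lower. Among the rises were BRD2, a bromodomain protein that binds acetylated histones, at 1.52 and HEXIM1, the 7SK-bound inhibitor of the elongation kinase P-TEFb, at 1.00. BRD2 went from 10.20 and 9.98 to 10.90 and 11.08, above both DMSO arrays even on the deposited scale. INTS6 and ZC3H4 were the lowest members, followed by NABP1, an Integrator-associated protein (-1.25), and RPRD1A, which binds the polymerase tail (-0.87). The small nuclear RNP partners of 7SK, MEPCE (-0.43) and LARP7 (-0.34), were lower and the elongation factor genes CDC73 (0.60), LEO1 (0.65) and SUPT5H (0.54) higher. Of 12 polymerase II subunits 4 were higher relative to the medians and 0 lower by limma, 0 also at an unadjusted p under 0.05. As deposited 0 were higher (0 also at an unadjusted p under 0.05 by limma) and 6 lower. The large subunit gene POLR2A rose by 0.79, from 10.04 and 9.86 to 10.07 and 10.17. POLR2F was at 0.49 relative and -0.13 as deposited, and its call ended without THZ b (adjusted p 0.0972). The 4 subunits became 1 after quantile normalization, where 3 were lower, 2 without DMSO a, 7 without DMSO b and 1 without THZ b.

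Of 27 tested genes of cleavage and polyadenylation 10 were higher and 9 lower, beside 24.5% and 17.1% of all tested genes. As deposited 1 was higher and 13 lower, and with arrays centred on the tested genes 16 were higher and 9 lower. WDR33, the subunit that recognises the polyadenylation signal, rose by 1.13 from 8.95 and 8.94 to 9.40 and 9.51, and SCAF8, which restrains early polyadenylation, rose by 1.00. The poly(A) polymerase gene PAPOLA (0.94) and CPSF6 (0.82) were higher too. CSTF2T, a paralogue of a cleavage stimulation factor, was at -0.98, CPSF4 at -0.85, SCAF4 at -0.83 and PCF11, a termination factor, at -0.78. Relative to the medians, 17 of 32 tested splicing genes were higher and 1 lower, beside 24.5% and 17.1% of all tested genes. As deposited 0 of them were higher (0 also at an unadjusted p under 0.05 by limma) and 14 lower, beside 1.32% and 58.7%. Their median was 0.26 relative and -0.36 as deposited. The kinase genes CLK1 and CLK3, whose products phosphorylate SR proteins, rose by 0.91 and 0.76, and CLK2 was at -0.44. The CLK2 call ended without THZ b (adjusted p 0.0787), which left 0 lower and 9 higher members, and without DMSO a 8 were higher. After quantile normalization 9 splicing genes were higher and 7 lower.

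Homologous recombination and the DNA damage response formed the list with the lowest median. Of 38 tested members 21 were lower and 4 higher relative to the medians, where 17.1% and 24.5% of all tested genes were, with a median of -0.40. As deposited 32 were lower and 2 higher, beside 58.7% and 1.32% of all tested genes. BLM, a helicase that processes recombination intermediates, was at 8.72 and 9.02 with DMSO and at 6.80 and 6.71 at 100 nM, a relative difference of -1.50 ± 0.16 (limma adjusted p 1.9e-07). MUS81, a nuclease of the same step, went from 9.35 and 9.21 to 7.51 and 7.39, a relative difference of -1.21. BRCA1, which directs repair of double-strand breaks by recombination, went from 8.09 and 7.92 to 6.32 and 6.07, a relative difference of -1.19 ± 0.12 (adjusted p 1.5e-07). In each of them both 100 nM arrays lay more than 1 log2 unit below both DMSO arrays, as deposited. PALB2, which bridges BRCA1 to BRCA2, was at -1.16 and the checkpoint kinase gene ATR at -1.01. POLQ (-0.97), SLX4 (-0.96) and BARD1 (-0.81), the partner of BRCA1, were also lower. Of the MRN complex, which senses breaks, NBN (-0.45) and RAD50 (-0.44) were lower, and MRE11, at -0.21, did not pass the test. The rises were those of ATM, RAD54B (1.17), a motor of strand exchange, FANCC (0.78) and PARP1 (0.35). ATM went from 6.80 and 7.14 to 8.32 and 8.32, higher on both scales, while the related kinase gene ATR went the other way. The median length of these genes was 50.9 kb, beside 28.4 kb over all tested genes, and the part of length in the result was not tested.

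Centrosome and centriole genes had the next lowest median, -0.27. Relative to the medians 18 of 38 tested were lower and 6 higher, beside 17.1% and 24.5% of all tested genes. As deposited 31 were lower and 1 higher, beside 58.7% and 1.32%. CSPP1, a centrosome and spindle pole protein, went from 8.66 and 8.46 to 6.55 and 6.07, a relative difference of -1.63, and CEP350 (-1.28), CEP57 (-1.13) and CNTRL (-1.04) followed. CEP170 (1.08), a protein of the mother centriole, CEP76 (0.87) and CEP78 (0.85) rose. In G2/M and mitosis 10 of 33 were lower and 6 higher, beside 17.1% and 24.5% of all tested genes. After quantile normalization 17 were lower and 3 higher, and as deposited 25 were lower and 0 higher (0 also at an unadjusted p under 0.05 by limma). The kinetochore gene NDC80 went from 10.17 and 10.47 to 8.42 and 8.17, a relative difference of -1.41, while the centromeric histone gene CENPA was at -0.65 and the kinase gene AURKB at -0.65. PRC1, a bundler of spindle microtubules, was at 0.42 relative and -0.20 as deposited and was not called after quantile normalization (adjusted p 0.147). CCNB2, a mitotic cyclin, was at 0.45 relative and -0.17 as deposited, a call that ended without THZ b (adjusted p 0.0639). Without that array 1 G2/M gene was higher, without DMSO a 2 were, and without THZ a 6 were lower.

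In G1/S and DNA replication 8 of 41 were lower and 7 higher, beside 17.1% and 24.5% of all tested genes, and as deposited 34 were lower and 0 higher (0 also at an unadjusted p under 0.05 by limma). The lower ones included the repressor genes E2F8, which went from 8.32 and 8.28 to 6.18 and 6.11 (-1.53), and E2F7 (-1.20), the replication factor genes GINS1 (-1.13), CDC6 (-0.88), POLA2 (-0.77) and MCM10 (-0.64). The clamp gene PCNA was at 0.50 relative to the medians and at -0.12 as deposited, and the clamp loader gene RFC3 at 0.43 and -0.19. The RFC3 call ended without THZ b (adjusted p 0.0678), where 2 members were higher, and 3 were without DMSO a. After quantile normalization 19 of the 41 were lower and 5 higher, and with arrays centred on the tested genes 8 were lower and 14 higher.

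Transcripts known to be induced within minutes to hours of a stimulus and to decay fast stood on the other side. Of 40 tested immediate-early genes 30 were higher relative to the medians and 1 lower, with a median of 0.66. Of all tested genes 24.5% were higher and 17.1% lower on that scale, and 1.32% and 58.7% as deposited. As deposited 7 of the 40 were higher and 8 lower, with a median of 0.04. PLK2, a stress-induced kinase, went from 5.85 and 6.16 to 7.05 and 7.19, a relative difference of 1.74. IER3, an early response gene, went from 10.12 and 9.93 to 11.10 and 11.03 (1.66 ± 0.10), and ID1, an inhibitor of bHLH factors, from 10.90 and 10.88 to 11.77 and 11.79 (1.51 ± 0.11). In each of them all 100 nM values lay above all DMSO values on both scales. JUN (1.33) and FOS (0.96), subunits of AP-1, CCN2 (1.30) and CCN1 (1.29), secreted matricellular proteins, and ARC (1.15) were higher as well. MYC rose by 0.56 relative to the medians and was at -0.06 as deposited. EGR1 was at -0.14 and NR4A1 at 0.06, neither past the test. PLK3 was the lower one at -0.34, and its call ended without any 1 of the 4 arrays, with adjusted p up to 0.180. The list's median gene length was 4.35 kb.

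Replication-dependent histone genes are short, lack introns and end without a poly(A) tail. Relative to the medians 19 of 26 tested were higher and 1 lower, beside 24.5% and 17.1% of all tested genes, with a median of 0.53. As deposited 7 were higher and 3 lower, beside 1.32% and 58.7% of all tested genes, with a median of -0.09. H2AC8 went from 6.60 and 6.61 to 8.01 and 7.89, a relative difference of 1.97 ± 0.13, and H2BC8 from 6.62 and 6.41 to 7.67 and 7.33 (1.60). H3C7 (0.91), H2AC6 (0.85) and H3C4 (0.79) were also higher. H3C1 (1.65), H2BC7 (1.40) and H4C5 (1.21) were called higher too, with a DMSO mean under 5.94. The linker histone gene H1-3 was the lower one at -0.42, an uncertain call (adjusted p 0.0480) that ended without DMSO a (0.383) or THZ b (0.479). Lower histone genes numbered 2 without DMSO b or THZ a, and 0 without DMSO a, THZ b or either TC32 array at 500 nM. Histone genes of 1 type are near-identical in sequence, so signal can be shared between them.

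Small nucleolar RNAs, which guide modification of ribosomal RNA and are mostly processed from introns, had the highest relative median of the 29 lists, 0.68. Relative to the array medians 13 of 21 tested were higher and 0 lower by limma (0 also at an unadjusted p under 0.05). Of all tested genes 24.5% were higher and 17.1% lower. As deposited 6 of the 21 were higher and 3 lower, beside 1.32% and 58.7% of all tested genes. SNORA84 went from 7.29 and 7.44 to 8.91 and 8.83, SNORA3B from 7.09 and 7.15 to 8.29 and 8.11 (1.70), and SNORA65 from 5.21 and 5.79 to 7.75 and 7.63 (2.81 ± 0.17). The 100 nM values of each lay above their DMSO values on both scales, and the DMSO mean of SNORA65 was under 5.94. Of the 8 host genes tested 4 were higher, SNHG17 by 1.43 and SNHG9 by 1.23, and 2 were without DMSO a or THZ a. As deposited 2 host genes were higher and 3 lower. Only 21 of 48 kept small nucleolar RNAs and 26 of 61 kept histone genes passed the filter on low values. That filter used treated arrays too, so members low with DMSO, such as SNORA65, could pass it because they rose. With no filter 29 of the 48 and 43 of the 61 were higher relative to the medians, beside 3829 of all 16944 kept genes.

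The sequence before the start was read for a histone and an immediate-early gene, members of lists in which most tested genes were called higher, and for the genes of the largest rise and fall. The 250 bases upstream of the start of H2AC8, ID1, SEC24A and INTS6 follow, from RefSeq (GRCh38.p14), 5′ to 3′ on the strand of the gene. Capitals mark TATAAA or its reverse complement TTTATA, and CCAAT or its reverse complement ATTGG.
H2AC8 (plus strand, chr6:26216671-26216920): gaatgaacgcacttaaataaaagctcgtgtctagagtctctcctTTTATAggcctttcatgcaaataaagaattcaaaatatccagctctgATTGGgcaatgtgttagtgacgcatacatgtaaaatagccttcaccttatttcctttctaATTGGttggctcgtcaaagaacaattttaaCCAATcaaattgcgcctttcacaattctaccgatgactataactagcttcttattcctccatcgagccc
ID1 (plus strand, chr20:31605039-31605288): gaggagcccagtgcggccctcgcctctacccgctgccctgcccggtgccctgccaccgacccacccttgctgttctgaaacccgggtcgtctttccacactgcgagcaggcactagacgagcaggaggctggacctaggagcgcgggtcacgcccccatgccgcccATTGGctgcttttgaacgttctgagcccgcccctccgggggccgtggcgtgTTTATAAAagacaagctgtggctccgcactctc
SEC24A (plus strand, chr5:134648535-134648784): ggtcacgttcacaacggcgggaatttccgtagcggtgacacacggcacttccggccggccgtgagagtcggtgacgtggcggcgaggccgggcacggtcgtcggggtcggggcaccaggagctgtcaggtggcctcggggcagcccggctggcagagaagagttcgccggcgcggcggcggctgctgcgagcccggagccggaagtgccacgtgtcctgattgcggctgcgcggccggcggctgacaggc
INTS6 (minus strand, chr13:51453037-51453286): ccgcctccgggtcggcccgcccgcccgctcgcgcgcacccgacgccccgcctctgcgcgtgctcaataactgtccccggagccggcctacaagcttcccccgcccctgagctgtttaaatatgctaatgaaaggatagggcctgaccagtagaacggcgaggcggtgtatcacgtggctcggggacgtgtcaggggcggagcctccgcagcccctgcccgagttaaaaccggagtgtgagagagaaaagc
H2AC8 had 1 match to TATAAA and 3 to CCAAT, and ID1 had 2 matches to TATAAA, which overlap on opposite strands, and 1 to CCAAT. The windows of SEC24A and INTS6 held neither. H2BC8 lies head to head with H2AC8, and its promoter entry shares 268 bases with that of H2AC8. TATAAA on either strand was present in 471 of the 8411 tested genes with a promoter entry (5.60%), in 6.89% of the higher and 3.51% of the lower genes. It was present in 21 of 129 genes at least 2-fold higher (16.3%), or 17 of 122 (13.9%) without histones, a count added after the data had been seen, and in 8 of 257 genes at least 2-fold lower (3.11%). Among the lists it was present in 15 of 24 histone genes (62.5%), 6 of 31 immediate-early genes (19.4%) and 0 of 33 genes of the DNA damage response. CCAAT on either strand was present in 35.4% of all, 39.5% of the 2-fold higher and 39.3% of the 2-fold lower genes. These letter matches are a description of the windows and were not tested.

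Genes tied to EWS/FLI were examined next. FLI1, whose signal in these cells can come from the fusion transcript, was at 10.85 and 10.87 with DMSO and at 9.55 and 9.29 at 100 nM, a relative difference of -0.82 ± 0.14 (limma adjusted p 5.8e-05). EWSR1, the other partner, was at 0.40 relative and -0.22 as deposited, and its call ended without DMSO a (adjusted p 0.0513) or THZ b (0.0787). A gene-level value does not tell the fusion from the normal transcripts. Of 35 tested EWS/FLI-activated genes 8 were lower and 10 higher (6 higher without THZ b), with a median of 0.02. Of all tested genes 17.1% were lower and 24.5% higher relative to the medians, and 58.7% and 1.32% as deposited. Of the 35 activated genes, 16 were lower and 8 higher after quantile normalization. As deposited 23 of them were lower and 0 higher (0 also at an unadjusted p under 0.05 by limma). FEZF1, a developmental zinc finger factor, was at -0.95, TNFAIP1 at -0.84, the zinc finger factor gene BCL11B at -0.76 and LIN28B, an inhibitor of let-7 processing, at -0.66. EZH2, a histone methyltransferase, was higher at 0.53, JAK1 at 0.55 and ID2 at 0.81, and IGF1 was at 0.55 relative and -0.07 as deposited. Of 22 EWS/FLI-repressed genes 15 were higher and 1 lower, with a median of 0.42, and as deposited 4 were higher and 5 lower, with a median of -0.20. The higher ones included IER3, CCN1, CCN2 and SPRY1 (0.55), of which all but SPRY1 are also in the immediate-early list, the collagen genes COL1A1 (0.58) and COL3A1 (0.48), and FOXO1, a forkhead factor, which went from 7.38 and 7.24 to 7.83 and 8.17 (1.31). The adhesion gene CDH11 was the lower one at -0.96. Among 31 transcription factors of Ewing sarcoma 10 were higher and 8 lower, beside 24.5% and 17.1% of all tested genes. As deposited 2 were higher and 15 lower, beside 1.32% and 58.7%. PAX7, a homeobox factor, went from 8.19 and 7.97 to 5.93 and 5.97 (-1.51 ± 0.12) and ETV1, an ETS factor, from 10.59 and 10.39 to 8.72 and 8.45 (-1.29). MEIS1 (-1.04) and SOX6 (-0.50) were lower and SOX4 (0.86), ELF1 (0.82) and ISL1 (0.62) higher.

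The label of the cells was checked against markers. All 9 tested Ewing markers were well above the filter level with DMSO, with means from 10.5 to 14.0. Besides FLI1 and BCL11B, CD99 (0.36), the surface protein used in diagnosis, NKX2-2 (0.43) and CAV1 (0.24) were called higher relative to the medians. As deposited these 3 were at -0.26, -0.19 and -0.38, and of them CAV1 passed the test (adjusted p 0.0094). CD99 (-0.08) and CAV1 (-0.19) were below 0 after quantile normalization as well. The CAV1 call ended without THZ b (adjusted p 0.0841). Of 7 kept haematopoietic markers, DMSO means ran from 3.72 to 7.40 and PTPRC was at 3.69 and 3.76. Those of skeletal muscle markers ran from 5.19 to 7.59. Epithelial (4.32 to 11.9), neural (5.6 to 11.9) and endothelial and fibroblast markers (4.01 to 10.6) reached the range of the Ewing markers. KRT18, TUBB3 and ACTA2 were the highest of these 3 sets, so high levels were not confined to Ewing markers. Among other cell types' markers, SYT1, a synaptic vesicle protein, was at -1.03, KRT18, a keratin, at 0.54 relative and -0.08 as deposited, and PDGFRB, a growth factor receptor, at -0.43. The PDGFRB call ended without THZ a (adjusted p 0.0742). TUBB3 and HBB, at 0.32 and 0.45 relative and at -0.30 and -0.17 as deposited, lost their calls without THZ b (adjusted p 0.141 and 0.0686), TUBB3 also without DMSO a (0.0804) and after quantile normalization (0.981), and HBB also without DMSO b (0.179) or THZ a (0.0956). After quantile normalization KRT18 (adjusted p 0.103) and PDGFRB (0.0929) were not called either. Relative to the medians, 0 of 2 tested muscle markers were called by limma, 1 being higher at an unadjusted p under 0.05.

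In insulin and IGF signalling to PI3-kinase 6 of 25 tested were higher and 6 lower, beside 24.5% and 17.1% of all tested genes, and as deposited 2 were higher and 14 lower. SOS1, a guanine nucleotide exchange factor for RAS, went from 9.31 and 9.54 to 7.60 and 7.48 (-1.27), and its paralogue SOS2 was at -1.18. The negative regulator gene TSC1 (-0.97), the adaptor gene IRS1 (-0.92) and the PI3-kinase subunit gene PIK3R1 (-0.58) were lower, while the receptor gene IGF1R (1.16) and the second adaptor gene IRS2 (0.64) were higher. IGF1R was at 7.27 and 7.80 with DMSO and at 8.07 and 8.07 at 100 nM, and both 100 nM values lay above both DMSO values. In the Hippo, Wnt, TGF-beta and BMP list 13 of 31 were higher (7 without THZ b) and 3 lower, and as deposited 4 and 13. LATS1 went from 6.22 and 6.04 to 7.57 and 7.67, whereas the paralogue LATS2 was at -0.12 and not called. The BMP receptor gene BMPR2 was at -0.81, the BMP ligand gene GDF6 at -0.65 and the inhibitor gene SMAD6 at -0.40.

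Of 24 genes of cell death 5 were higher and 4 lower, near the shares over all tested genes (24.5% and 17.1%). As deposited 0 were higher (0 also at an unadjusted p under 0.05 by limma) and 16 lower, and after quantile normalization 6 were higher and 8 lower. The lower ones were the survival genes BCL2L2 (-1.18), XIAP (-1.10) and BCL2 (-0.93) and the initiator caspase gene CASP8 (-0.86). BCL2L2 went from 9.46 and 9.45 to 7.70 and 7.60. BCL2L11 (0.65), MCL1 (0.29) and BID (0.37) were higher, and PMAIP1, like BCL2L11 a BH3-only gene, was at 0.60 relative and -0.02 as deposited. Higher members numbered 2 without DMSO a or THZ b. Of 24 p53 targets 6 were higher, near the share over all tested genes, and 6 lower, and as deposited 2 were higher and 15 lower. SAT1, an enzyme of polyamine breakdown, went from 7.28 and 7.29 to 8.51 and 8.47 (1.82), GADD45A was at 0.87 and MDM2 at -0.11, not called, and the nucleotide excision repair gene XPC was at -0.79. DDB2, of the same pathway, was at -0.44, and its call ended without DMSO b (adjusted p 0.0540) or THZ b (0.0567). Lower p53 targets numbered 2, 3 and 2 without DMSO b, THZ a and THZ b.

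The shares over all tested genes were 24.5% higher and 17.1% lower relative to the medians, and 1.32% and 58.7% as deposited. Heat shock proteins and chaperones were higher in 22 of 28 tested relative to the medians, with a median of 0.38. Lower were 0 of the 28 by limma (0 also at an unadjusted p under 0.05). HSPA1B, an inducible HSP70, went from 11.23 and 11.34 to 11.76 and 11.77 (1.10), and DNAJB6, a co-chaperone, rose by 1.02. As deposited 2 were higher and 4 lower, after quantile normalization 11 and 3, and 14 were higher and 1 lower without DMSO a. The unfolded protein and integrated stress response had 10 of 25 higher and 4 lower relative to the medians. As deposited 15 of the 25 were lower, near the share over all tested genes. DDIT4, a stress-induced inhibitor of mTOR signalling, was at 0.93 and the chaperone gene DNAJC3 at 0.83, while the kinase gene EIF2AK4 (-0.89) and the transcription factor gene XBP1 (-0.73) were lower. In the NF-kB and interferon list 0 of 20 were higher as deposited (0 also at an unadjusted p under 0.05 by limma) and 10 lower. Relative to the medians 8 were higher, among them the chemokine gene CXCL8 (1.01) and ISG15 (0.63), and 2 lower. Those were IRF2 (-0.79) and IRF9 (-0.71), transcription factors of the interferon response, and both calls ended without THZ b (adjusted p 0.0656 and 0.0620). Among chromatin remodellers and methyltransferases 8 of 42 were higher and 6 lower, both below the shares over all tested genes (24.5% and 17.1%). As deposited 2 were higher and 22 lower, and with arrays centred on the tested genes 19 were higher and 6 lower. NSD1, a histone methyltransferase, rose by 1.14 beside CHD2, and CHD9 (-1.37), ARID2 (-1.04) and INO80 (-0.92), all of remodelling complexes, were lower. Higher chromatin genes numbered 5 and 13 without DMSO a and DMSO b and 4 without THZ b.

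Ribosomal protein and respiratory chain genes were among the lists with the narrowest spread of differences, and their signal can include that of near-identical copies elsewhere in the genome. Of all tested genes 24.5% were higher and 17.1% lower relative to the medians, and 1.32% and 58.7% as deposited. Of 65 tested cytoplasmic ribosomal protein genes 62 were higher relative to the medians, with a median of 0.39. Among them 0 were lower by limma, 0 also at an unadjusted p under 0.05. As deposited their median was -0.23, with 0 higher at either threshold and 6 lower, and after quantile normalization 3 were higher and 2 lower. Of 71 subunits of oxidative phosphorylation 50 were higher with a median of 0.34, and 0 were higher (0 also at an unadjusted p under 0.05) and 13 lower as deposited by limma, and 13 higher and 4 lower after quantile normalization. Without DMSO a 26 of these subunits were higher, without THZ b 22, and without DMSO b 1 was lower. The direction of both lists thus depends on the scaling. With the tested genes in 5 bins by their DMSO value, from dim to bright, the median relative differences were 0.17, -0.01, -0.04, 0.03 and 0.26, and 21.1%, 16.1%, 16.8%, 20.6% and 48.2% were called higher. Both ends thus lay above the middle, and the DMSO value is itself a part of the difference. RPS3A (0.72), NDUFB2 (0.53) and ATP5MG (0.58) were the named members with the largest rises, at 0.10, -0.09 and -0.04 as deposited. In ribosome biogenesis 12 of 40 were higher (7 without THZ b) and 6 lower, and as deposited 17 were lower. PPAN, an assembly factor of the large subunit, went from 9.86 and 9.71 to 7.87 and 7.68 (-1.39) and TAF1B, of the polymerase I initiation complex, was at -1.04, while the snoRNP protein genes NOP56 and NOP58 were at 0.59 each, and at -0.03 each as deposited.

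Zinc finger genes with ZNF names, a large family of DNA-binding repressors, were lower in 88 of 245 tested and higher in 33, with a median of -0.16 beside 0.10 over all tested genes. Over all tested genes 17.1% were lower and 24.5% higher relative to the medians. As deposited 182 of the ZNF genes were lower and 1 was higher, beside 58.7% and 1.32% of all tested genes. ZNF362 went from 10.49 and 10.16 to 8.10 and 7.94 and ZNF189 from 8.69 and 8.66 to 6.57 and 6.17, both at -1.69. ZNF33A was the largest rise, from 6.45 and 6.33 to 7.57 and 7.42 (1.73), and ZNF263 rose by 0.87. Ubiquitin ligase genes with RNF, TRIM or FBXO names were lower in 33 of 128 and higher in 27, beside 17.1% and 24.5% of all tested genes, with a median of 0.02, and as deposited 81 were lower and 1 higher, the relative rises including TRIM36 (1.13) and RNF19B (1.05). Without THZ b 21 ZNF genes and 16 ubiquitin ligase genes were higher. Of all kept members, 245 of 456 ZNF genes and 128 of 188 ubiquitin ligase genes passed the filter on low values.

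Across the 29 lists, as deposited only the immediate-early genes (0.04) and the small nucleolar RNAs (0.06) had a median above 0, so a list given as higher elsewhere is higher relative to the array medians alone.

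**Figure D3:**
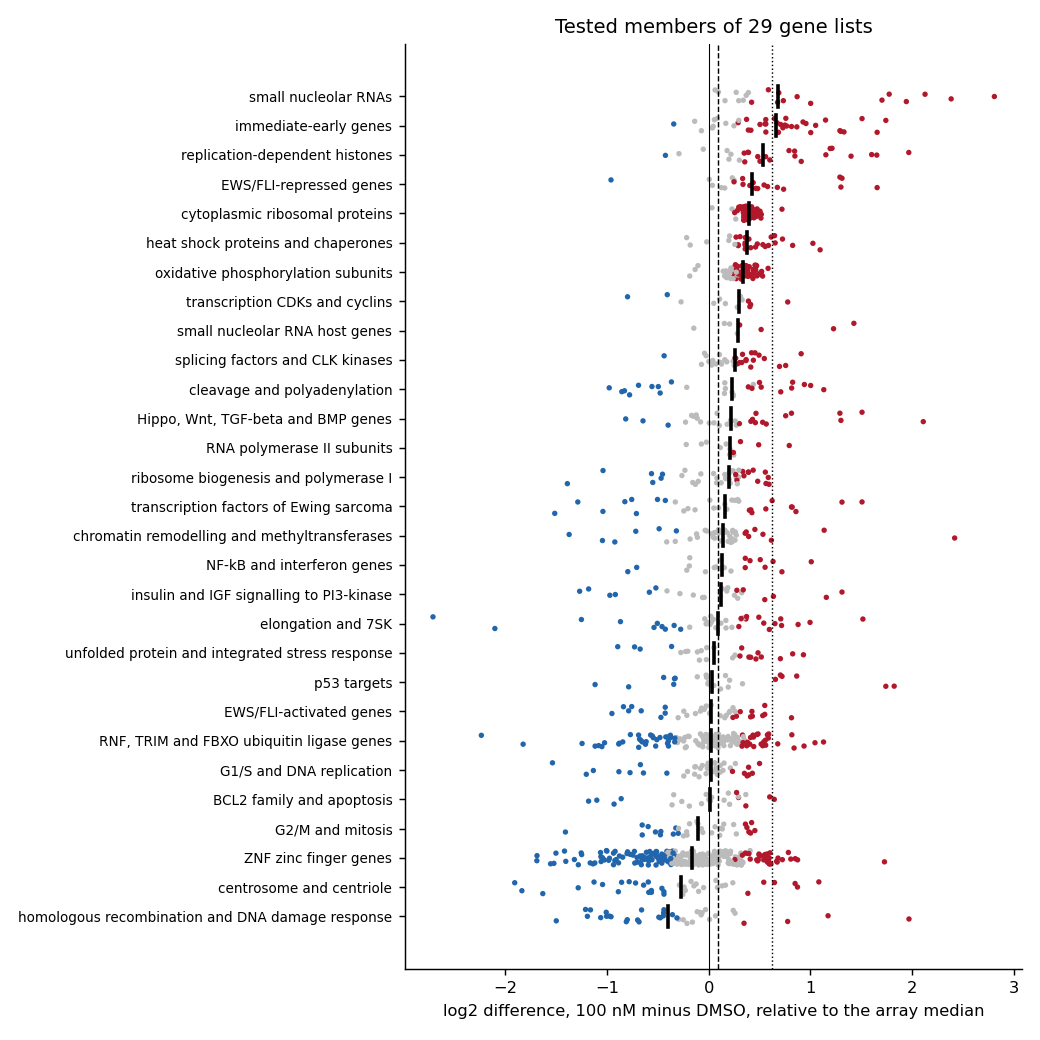
Relative log2 difference (100 nM minus DMSO) of every tested member of the 29 gene lists; red points were called higher, blue lower and grey not called, and black ticks are list medians. The dashed line is the median of all tested genes, 0.10, and the dotted line at 0.62 marks where a gene is level with DMSO as deposited; the medians run from -0.40 for the DNA damage response to 0.68 for the small nucleolar RNAs.

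Gene length was set against the change because CDK12 inhibition is known to affect long genes. Across 10162 tested genes with a length the correlation of log10 length with the relative difference was weak, with Pearson r -0.11 and Spearman rho -0.09, given as a description over genes that share 4 arrays. In 5 bins of equal number from short to long the median difference was 0.14, 0.12, 0.10, 0.07 and 0.05, and the share called lower rose from 12.5% to 21.8%. The share called higher went from 27.1% in the shortest to 21.4% in the longest bin. Genes at least 2-fold lower numbered 37, 32, 41, 93 and 92 and genes at least 2-fold higher 49, 7, 22, 31 and 49, so large rises were found at both ends. The median length was 42.2 kb for the 2-fold rises and 50.4 kb for the 2-fold falls.

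**Figure D4:**
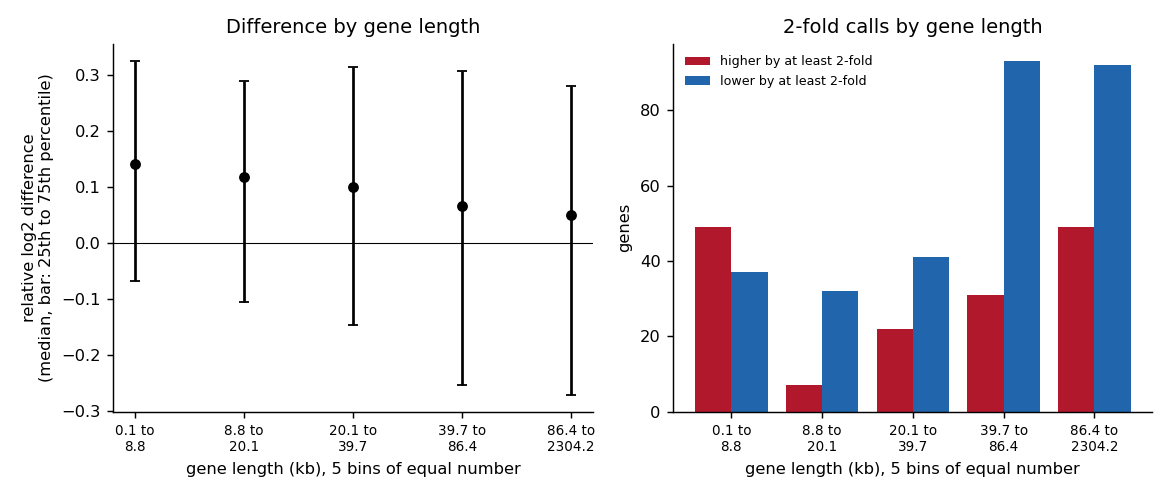
Left, median relative log2 difference (bars, interquartile range) in 5 bins of gene length in kb; right, number of genes at least 2-fold higher (red) or lower (blue) in each bin. The medians go from 0.14 in the shortest to 0.05 in the longest bin, and the 2-fold falls from 37 to 92.

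The TC32 arrays, which share no sample with the A673 comparison, were used to see whether the same genes changed in the other line. At 100 nM 3112 genes (30.6%) were higher and 2152 (21.2%) lower in TC32 relative to the medians. Of the 158 genes at least 2-fold higher in A673, 153 were higher in TC32, and of the 295 at least 2-fold lower, 292 were lower. All 15 of the largest rises and all 15 of the largest falls were called in the same direction in TC32, SEC24A at 3.44 and INTS6 at -2.52. Across the 10166 genes the differences in the lines correlated with Pearson r 0.857 and Spearman rho 0.791, a description over genes measured on one array design. The difference between the lines was itself called for 270 genes (2.66%), 88 higher and 182 lower in TC32 than in A673, and for 18 of the 158 rises and 30 of the 295 falls, which had been chosen on the A673 arrays. FLI1 was at -0.82 in A673 and -2.51 in TC32 (difference -1.69, limma adjusted p 3.7e-05), TLE4 at 1.91 and 0.53 (-1.39, adjusted p 7.6e-05) and PAX7 at -1.51 and -2.62 (-1.11, adjusted p 0.00064). These 3 calls held without any 1 of the 12 arrays.

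**Figure D5:**
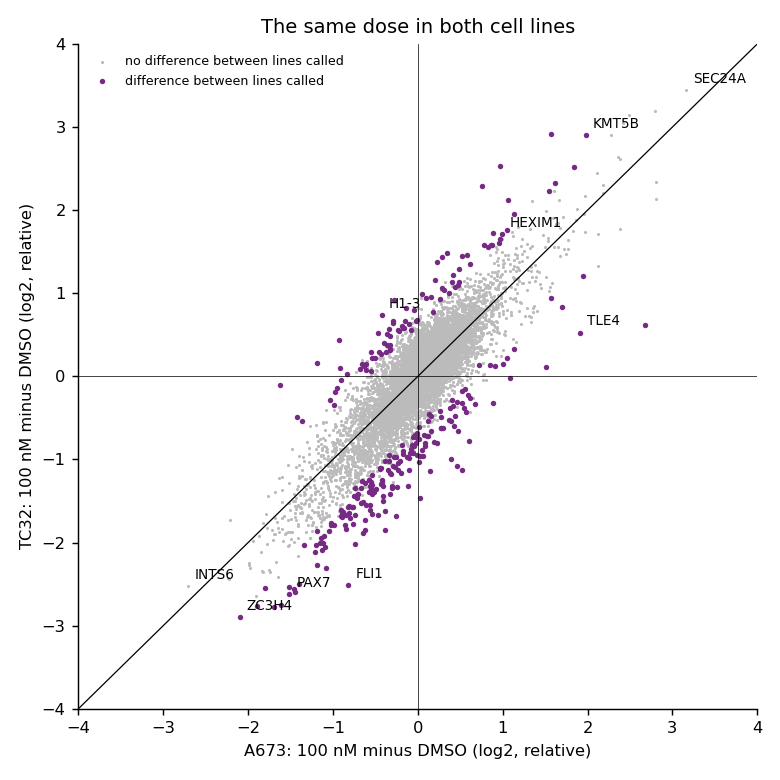
Relative log2 difference (100 nM minus DMSO) of each tested gene in A673 (horizontal) and TC32 (vertical), with the line of equal values; purple points are the 270 genes whose difference between lines was called. SEC24A (3.16 and 3.44) and INTS6 (-2.71 and -2.52) lie near the line of equal values, and FLI1 (-0.82 and -2.51) and TLE4 (1.91 and 0.53) below it.

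The 500 nM comparison in A673 uses the same DMSO arrays, so its values are set beside those at 100 nM without a correlation. SEC24A was at 3.16 relative at 100 nM and at 1.79 at 500 nM, PHF12 at 2.80 and 1.01, LATS1 at 2.11 and 0.63, and FOXO1 at 1.31 and -0.03. SNORA84 was at 2.13 and 3.28, H2AC8 at 1.97 and 3.11, SAT1 at 1.82 and 3.44, and SNORA65 at 2.81 and 4.28. Among the falls INTS6 was at -2.71 and -2.44, KAT14 at -2.22 and -2.32, ZC3H4 at -2.10 and -3.65, and BRCA1 at -1.19 and -0.62. Of all tested genes, 1070 (10.5%) were higher and 2558 (25.2%) lower at 500 nM than at 100 nM. CDK12 (0.16 and -0.64, adjusted p of the difference 1.4e-05 by limma), CDK13 (-0.80 and -1.82, adjusted p 5.7e-05) and FLI1 (-0.82 and -1.83, adjusted p 3.5e-06), named as the targets of the compound and as the fusion partner, were all lower at the higher dose.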

How the data were processed

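The deposited values are log2 signals, 1 column per array, normalized by the authors. Their method is not given in the sources used here. MAS5, GRCh37 and hg19 appear in the submitters' processing notes with no role stated. Probe sets annotated to 1 gene with 3-decimal values were kept. Rows with at most 2 decimals (5.73%) and 85 genes that share values with another symbol were left out. Each gene was represented by its set with the highest mean.

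limma 3.58.1 (R 4.3.3) fitted a separate mean for each of the 6 groups over the 12 arrays (variance trend, two-sided, Benjamini-Hochberg adjusted p under 0.05 over 10166 genes), on centred values and as deposited. The median residual SD was 0.118 and 0.189, with 6 residual degrees of freedom. Adjusted p-values on the deposited scale treat genes as independent although whole arrays are offset, and are smaller than 2 arrays a group warrant. Array number limits precision. The model was tested on simulated data. Tables were made with Python 3.11.15 and pandas 2.3.3.

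The named genes were the 15 largest rises and falls past the test with both means at or above 5.94 and both treated arrays beyond both DMSO arrays on both scales, 2 rises and 2 falls of each list, the called markers, and CDK12, CDK13, CCNK, FLI1, EWSR1, MYC, BRCA1, ZC3H4 and SNORA65; other list members were named after their values were seen. The genes and lists were chosen with earlier results of these data known. Alternatives covered scaling, filter, arrays in the fit, variance model, replicate block and each array left out.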

Additional observations from a re-analysis of the deposited data

Results flagged for a closer look

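For 13 of the named genes the effect of 100 nM differed between the lines by the fit's own test of the difference (TC32 minus A673, limma adjusted p under 0.05). FLI1 differed by -1.69, TLE4 by -1.39 and PAX7 by -1.11, and these calls held without any 1 of the 12 arrays. TLE4 rose in both lines, and FLI1 and PAX7 fell in both. The other differences were called with all arrays and lost their call in at least 2 of the 12 fits that leave out 1 array. PRR5L (-0.87), E2F7 (-0.83), ZC3H4 (-0.8) and DUS2 (-0.75) were lower than DMSO in both lines and lower still in TC32. SNORA3B (-0.87) and RPS3A (-0.58) were higher in A673, at 1.70 and 0.72, than in TC32, at 0.83 and 0.14. HEXIM1 (0.72) and KMT5B (0.93) rose more in TC32, to 1.72 and 2.90, and SYT1 (0.75) was at -1.03 in A673 and -0.29 in TC32. H1-3 was at -0.42 in A673 and 0.73 in TC32, a difference of 1.16. No explanation of these differences was tested.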

How the results depend on the processing

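The number of arrays, 2 a group, limits every value. The count of higher genes relative to the medians was 3829 with no filter and ran from 1343 to 2894 when 1 array was left out. The 2-fold rises numbered 257 with no filter and 96 with the filter at the 60th percentile, where 156 genes fell 2-fold, as fewer genes were tested, and 126 to 250 with 1 array left out. As deposited, 78 genes were higher and 3353 lower with A673 arrays only, 214 higher with the 4 arrays alone, and 81 higher and 3943 lower at the 60th percentile. With 1 array left out 76 to 228 were higher and 3155 to 8047 lower. The cause of these moves was not tested beyond the number of genes. Across genes, deviations of A673 replicates from their group means correlated at -0.01 between the DMSO and 100 nM arrays. The correlation was 0.14 between DMSO and 500 nM and -0.05 between 100 nM and 500 nM. It cannot show offsets of whole arrays, and replicate 1 had the higher array median in every group. Whether the replicate numbers pair the samples is therefore not settled. With the replicate block 2564 genes were higher and 1747 lower relative to the medians, and 147 and 6654 as deposited. Longest minus shortest length bin differed by -0.09 in 5 bins, -0.12 in 10 and -0.08 with no filter. Of the 131 named genes, 23 changed sign as deposited: CDK12 -0.46 (adjusted p 0.0480), CCNK -0.21, EWSR1 -0.22, MYC -0.057, CDK8 -0.21, POLR2F -0.13, CCNB2 -0.17, PRC1 -0.20, PCNA -0.12, RFC3 -0.19, PMAIP1 -0.019, IGF1 -0.0675, NOP56 -0.026, NOP58 -0.033, ATP5MG -0.035, NDUFB2 -0.089, RPS9 -0.10, CD99 -0.26, NKX2-2 -0.19, CAV1 -0.38 (adjusted p 0.0094), HBB -0.17, KRT18 -0.083 and TUBB3 -0.30. After quantile normalization CD99 (-0.0751) and CAV1 (-0.19) changed sign and 10 calls were lost; 16 were lost as deposited.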
